A study of Mus musculus with 137 samples.

Results

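The 10 genes described here are the transcription factors that set and keep the identity of intestinal enterocytes, Hnf4a, Hnf4g, Cdx1, Cdx2, Gata4, Gata6, Klf4, Klf5 and Pdx1, and the brush border gene Vil1. They were chosen by name, with earlier results of these data known, out of 21450 genes measured. Each is represented by its probe with the highest total count. The study had itself used Klf4 and Vil1 in these samples to check the separation of villus from crypt, so that their direction was known beforehand. RNA was measured with TempO-Seq, a targeted assay in which pairs of detector oligomers are ligated on each transcript and counted by sequencing. The tissue was formalin-fixed, paraffin-embedded duodenum of female wildtype B6C3F1 mice, an F1 hybrid strain, that drank water with hexavalent chromium (Cr(VI)), given as sodium dichromate dihydrate, at 0, 0.1, 1.4, 5, 20, 60 or 180 ppm for 7 or 90 days, called days 8 and 91. Crypt and villus regions of each mouse were separated on slides by microdissection and sequenced as separate libraries. The 28 groups of compartment, day and concentration held 4 to 6 libraries each, 71 of crypt and 66 of villus in all, from 71 mice, and the untreated groups drank the same water without Cr(VI). Crypt and villus libraries were both available for 66 mice. Mouse 90, labelled 0.1 ppm and day 8, has a number apart from the other mice of that group (126 to 130) and was used as labelled, and leaving it out changed the count of members called in no day 8 comparison that used it.

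Enterocytes arise from stem cells in the crypt, mature as they move up the villus and are shed at its tip. HNF4 factors are nuclear receptors that switch on genes of absorption and of the brush border, CDX factors are homeobox proteins that specify intestinal fate, and GATA4 and GATA6 are zinc finger factors of endoderm, of which GATA4 distinguishes the proximal from the distal small intestine. KLF4 is known from differentiated, non-dividing epithelium and KLF5 from proliferating crypt cells, while PDX1 is a homeobox factor of duodenum and pancreas. Villin, the product of Vil1, bundles the actin filaments of microvilli.

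The sequences before the transcription start are shown because KLF proteins are known to bind GC boxes and CACCC elements. The sequences are given for Vil1, Klf4 and Hnf4a, members with higher levels in villus, and for Cdx2, which was higher in crypt. For Hnf4a this held only with the probe used here. They come from RefSeq on GRCm38.p6, where a promoter was held for 5 of the 10 genes. Each is 250 bases long and written 5′ to 3′ on the strand of the gene. Capitals mark the letters CACCC and GGGCGGGG on either strand, where GGGTG and CCCCGCCC are the reverse complements and matches may overlap. The Vil1 sequence lies at chr1:74409134-74409383 on the plus strand, that of Klf4 at chr4:55532476-55532725 on the minus strand and that of Cdx2 at chr5:147307250-147307499 on the minus strand. The upstream Hnf4a start has chr2:163506607-163506856 and the downstream start chr2:163546905-163547154, both on the plus strand.
Vil1: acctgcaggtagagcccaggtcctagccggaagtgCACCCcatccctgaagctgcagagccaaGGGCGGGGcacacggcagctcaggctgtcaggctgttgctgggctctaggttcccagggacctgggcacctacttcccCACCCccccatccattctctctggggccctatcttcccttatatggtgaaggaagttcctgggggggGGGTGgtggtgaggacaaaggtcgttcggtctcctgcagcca
Klf4: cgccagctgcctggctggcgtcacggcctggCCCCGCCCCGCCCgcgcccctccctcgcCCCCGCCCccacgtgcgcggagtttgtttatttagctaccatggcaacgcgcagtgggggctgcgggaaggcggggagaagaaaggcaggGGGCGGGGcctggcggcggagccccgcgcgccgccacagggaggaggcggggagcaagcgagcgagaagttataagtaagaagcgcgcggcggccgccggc
Hnf4a, upstream start: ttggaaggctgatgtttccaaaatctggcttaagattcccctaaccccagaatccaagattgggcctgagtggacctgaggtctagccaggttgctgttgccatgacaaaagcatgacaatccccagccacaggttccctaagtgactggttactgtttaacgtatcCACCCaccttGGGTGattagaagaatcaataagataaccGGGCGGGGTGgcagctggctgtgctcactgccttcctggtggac
Hnf4a, downstream start: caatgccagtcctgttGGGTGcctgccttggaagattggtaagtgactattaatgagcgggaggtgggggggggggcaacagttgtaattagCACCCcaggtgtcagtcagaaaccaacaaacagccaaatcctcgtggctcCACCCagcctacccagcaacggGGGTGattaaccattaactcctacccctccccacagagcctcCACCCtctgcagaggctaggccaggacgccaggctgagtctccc
Cdx2: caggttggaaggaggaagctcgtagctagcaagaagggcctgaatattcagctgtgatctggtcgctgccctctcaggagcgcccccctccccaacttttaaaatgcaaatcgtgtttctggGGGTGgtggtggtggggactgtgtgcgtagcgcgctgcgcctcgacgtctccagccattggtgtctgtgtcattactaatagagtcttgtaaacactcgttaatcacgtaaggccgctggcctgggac
CACCC was found 3 times before Vil1, 3 and 5 times before the Hnf4a starts, once before Cdx2 and in 0 places before Klf4. GGGCGGGG was found 4 times before Klf4, once before Vil1 and once before the upstream Hnf4a start, where it overlapped a CACCC match. Of all 32851 promoters of this length, 52.0% held CACCC and 16.1% held GGGCGGGG, so that CACCC in particular is common. A match describes letters and does not show that a factor binds there.

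The libraries held 1463938 to 7199801 counts, and 12957 to 23112 of 30146 probes were detected. Levels are given as CPM, which are counts scaled to a common library size and are compared between libraries of the same gene, not between genes, because probes differ in efficiency. The compartments were checked with 8 crypt markers, such as the stem cell gene Lgr5 and the Paneth cell gene Lyz1, and 4 villus markers, such as Krt20. Averaged over concentrations, 6 of the 8 crypt markers were lower in villus on both days, and 3 and 4 of the 4 villus markers were higher on days 8 and 91. Of all probes, 24.1% and 22.8% were lower in villus on days 8 and 91, and 11.7% and 13.5% were higher. Over all libraries, Apoa4 had the highest median among the villus markers, 3938 CPM, and Defa22 among the crypt markers, 3107 CPM. Krt20, Ada and Nt5e had medians of 867, 5.26 and 1.12 CPM, so that the villus sum mainly follows Apoa4. The summed villus markers exceeded the summed crypt markers in 6 of 71 crypt libraries, and the reverse held in 2 of 66 villus libraries. In 5 of those 6 crypt libraries the sums were near each other, but the untreated day 8 crypt library of mouse 49 had 1484 CPM of crypt and 8581 CPM of villus markers. The untreated day 8 villus library of mouse 48 had 11916 and 4169 CPM, and the 60 ppm day 8 villus library of mouse 447 had 6306 and 1925 CPM. Day 8 results are therefore also given without mice 48 and 49 where they changed. Summed levels of 9 pancreatic acinar genes ranged from 3.01 to 153905 CPM, and none of these genes passed the test in any comparison of compartments or trend. Smooth muscle genes were lower in villus, 6 of 6 on both days.

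In untreated mice, Klf4 was the member that differed most between villus and crypt. On day 91 its crypt level was 6.55, 13.9, 33.5, 17.1 and 15.7 CPM in the 5 libraries, and its villus level was 142, 125, 102 and 102 CPM in the 4 libraries. The 2 sets did not overlap, and the difference was 2.68 ± 0.38 on the log2 scale (SE), with an adjusted p of 4.19e-07 from edgeR's quasi-likelihood test over all probes. On day 8 Klf4 measured 24.9, 29.5, 15.1, 60.8 and 33.2 CPM in crypt and 97.8, 113, 28.6, 120 and 97.7 CPM in villus. The low villus value, 28.6 CPM, belonged to mouse 48, and the high crypt value, 60.8 CPM, to mouse 49. The difference was 1.47 ± 0.35 (adjusted p = 0.035), and leaving out mouse 46, 47 or 50 took it past the threshold of 0.1 (highest adjusted p = 0.43).

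Vil1 was the other member that passed in untreated mice, on day 91. Its crypt levels were 3084, 5472, 4230, 4739 and 5864 CPM and its villus levels 7142, 7671, 7831 and 5831 CPM. All but the lowest villus library lay above all crypt libraries, and the difference was 0.61 ± 0.21 (adjusted p = 0.052). It was lost when mouse 3, 5 or 6 was left out (highest adjusted p = 0.26). With the mouse as a block, Klf5 also passed on day 91, with a difference of -0.76 ± 0.24 (adjusted p = 0.031). On day 8, Gata6 passed with the block at 0.97 ± 0.28 (adjusted p = 0.030), and without mice 48 and 49 Gata6 and Vil1 passed at 1.58 ± 0.35 (adjusted p = 0.0095) and 0.87 ± 0.24 (adjusted p = 0.036). Of all 26365 probes tested, 0.637% passed on day 8 and 10.9% on day 91, so that 1 and 2 of 10 members were read against very different backgrounds.

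Averaged over the 7 concentrations, the members fell into those with higher levels in villus and those with higher levels in crypt. Klf4, Vil1, Gata6 and Hnf4a were higher in villus on both days and Hnf4g on day 8, while Cdx1, Cdx2 and Klf5 were higher in crypt on both days. The Hnf4a difference did not pass with its second probe. Of all probes, 11.7% were higher and 24.1% lower in villus on day 8, beside 5 and 3 of 10 members. On day 91 the shares were 13.5% and 22.8%, beside 4 and 3 of 10 members. On days 8 and 91, 41.0% and 37.5% of the probes were at 0 counts in every library of at least 1 of the groups averaged, which leaves their coefficient without a finite value. Among the other probes, 19.1% were higher and 31.1% lower in villus on day 8, and 21.1% and 30.2% on day 91. Pdx1 was the 1 member with such groups, and its means and slopes are not read here. Over all 10 members the median difference was 0.36 on day 8 and 0.28 on day 91, compared with -0.14 and -0.01 over all probes. These medians include values without a finite coefficient, that of Pdx1 among the members, and are descriptions only. In RNA from whole microdissected regions, fewer cells of a type and less RNA per cell cannot be told apart.

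Klf4 was higher in villus by 1.87 ± 0.14 on day 8 (adjusted p = 1.0e-23) and 1.92 ± 0.13 on day 91 (adjusted p = 6.6e-26). In all 66 mice with both libraries, Klf4 was higher in the villus library. Vil1 was higher by 0.74 ± 0.08 and 0.61 ± 0.07 (adjusted p = 1.9e-15 and 4.5e-12), and in 63 of 66 mice. Both genes were higher in villus for nearly every mouse, although the Vil1 difference was smaller.

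Among the GATA factors, Gata6 was higher in villus by 0.69 ± 0.11 on day 8 and 0.45 ± 0.11 on day 91 (adjusted p = 8.8e-08 and 0.00035), with the villus library higher in 56 of 66 mice. Gata4 measured 0.29 ± 0.17 and 0.05 ± 0.15 (adjusted p = 0.20 and 1.0), and 36 mice had the higher value in villus, 29 in crypt and 1 was at 0 counts in both. Whether the 2 GATA factors differed from each other in this comparison was not tested.

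Hnf4a was higher in villus by 0.39 ± 0.11 and 0.35 ± 0.10 (adjusted p = 0.0019 and 0.0043), in 46 of 66 mice. Its second probe did not pass in this edgeR comparison, at 0.15 and 0.05 (adjusted p = 0.42 and 0.95). Hnf4g was higher by 0.47 ± 0.13 on day 8 (adjusted p = 0.0019) and measured 0.21 ± 0.13 on day 91 (adjusted p = 0.23), with 45 of 66 mice higher in villus. For both HNF4 genes, single mice ran in either direction.

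Cdx1 was lower in villus than in crypt, by -0.83 ± 0.13 on day 8 and -1.03 ± 0.12 on day 91 (adjusted p = 1.4e-08 and 1.4e-12). Its crypt library was the higher one in 62 of 66 mice, and in all 34 mice of day 91. Cdx2 measured -0.30 ± 0.13 and -0.44 ± 0.13 (adjusted p = 0.074 and 0.0044), with 46 of 66 mice higher in crypt. On day 8, Cdx2 did not pass without mouse 288 or 367 (highest adjusted p = 0.16) or in DESeq2, but it passed with the mouse as a block at -0.33 ± 0.12 (adjusted p = 0.026) and without mice 48 and 49 at -0.42 ± 0.14 (adjusted p = 0.0095). Klf5 was lower in villus by -0.59 ± 0.11 and -0.80 ± 0.11 (adjusted p = 9.4e-06 and 9.0e-10), with crypt higher in 52 of 66 mice. Klf4 and Klf5, which belong to the same family, thus lay on opposite sides of the compartment difference.

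**Figure D1:**
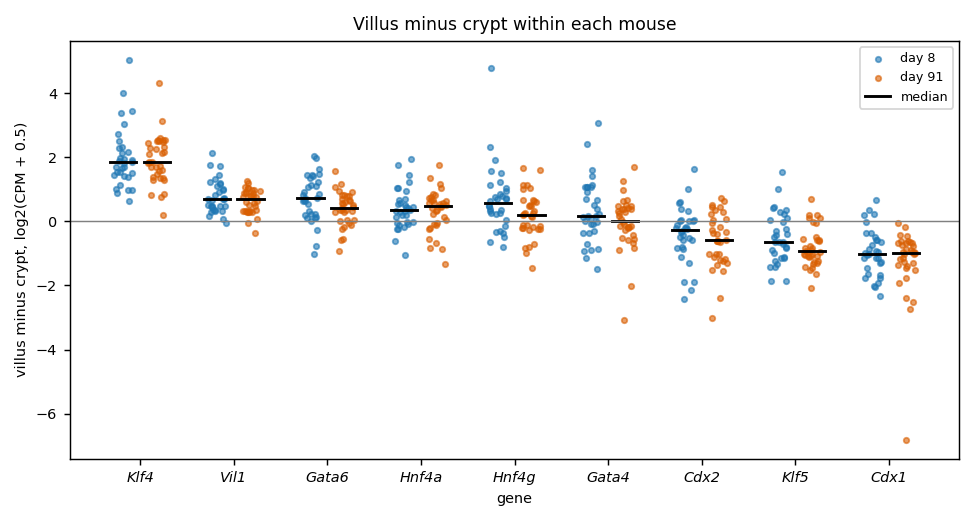
Difference between the villus and the crypt library of the same mouse on the log2(CPM + 0.5) scale, for 9 genes. Points are the 32 mice of day 8 and the 34 mice of day 91, and bars are medians. The lowest Cdx1 point, from a villus library with 0 counts, depends on the 0.5 added. All Klf4 points lie above 0, and all day 91 Cdx1 points lie below 0.

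The change with concentration was measured as the slope of log2 level on log10(ppm + 1), so that a slope of 1 is a doubling per 10-fold step. In crypts on day 8, Cdx1 rose with a slope of 0.29 ± 0.10 (adjusted p = 0.049) and Vil1 fell with a slope of -0.33 ± 0.06 (adjusted p = 6.4e-05). Of all probes, 4.3% rose and 6.24% fell, and of those not at 0 throughout a group 5.48% and 7.98%. In crypts on day 91, Klf5 rose with a slope of 0.51 ± 0.10 (adjusted p = 1.4e-05), Hnf4g with 0.30 ± 0.11 (adjusted p = 0.050) and Cdx1 with 0.25 ± 0.10 (adjusted p = 0.061), and Gata6 fell with -0.26 ± 0.09 (adjusted p = 0.045). Of all probes, 10.9% rose and 7.81% fell, and of those not at 0 throughout a group 13.3% and 9.75%. In crypts, 2 of 10 members had a trend on day 8 and 4 of 10 on day 91, and Cdx1 was called on both. Leaving out mouse 6 took Gata6 past the threshold (adjusted p = 0.12), leaving out mouse 5, 6, 483 or 490 did so for Hnf4g (highest adjusted p = 0.12), and leaving out mouse 5, 7, 8, 84, 404 or 485 did so for Cdx1 on day 91 (highest adjusted p = 0.14). Cdx1 on day 91 also did not pass in 6 of 11 other settings. Hnf4g did not pass in DESeq2, with DESeq2 size factors or with every library thinned to the same number of counts.

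In villi on day 8, Gata6 fell with a slope of -0.35 ± 0.10 (adjusted p = 0.011) and Vil1 with -0.21 ± 0.07 (adjusted p = 0.026), beside 8.16% of all probes that fell and 6.45% that rose, or 11.1% and 9.71% of those not at 0 throughout a group. In villi on day 91, Gata6 fell with -0.54 ± 0.10 (adjusted p = 2.8e-06), Cdx2 with -0.40 ± 0.12 (adjusted p = 0.0079), Hnf4a with -0.39 ± 0.09 (adjusted p = 0.00060) and Vil1 with -0.22 ± 0.07 (adjusted p = 0.0065). Klf5 rose with 0.62 ± 0.10 (adjusted p = 1.7e-07). Of all probes, 9.08% fell and 17.3% rose, and of those not at 0 throughout a group 13.7% and 23.0%. The median slope was 0.07 over all probes and -0.22 over the 10 members, Pdx1 included. Villi on day 91 therefore had 4 falling members of 10 where most probes called had risen. Hnf4g, Cdx1, Gata4 and Klf4 did not pass in villi on either day, with slopes from -0.22 to 0.18.

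**Figure D2:**
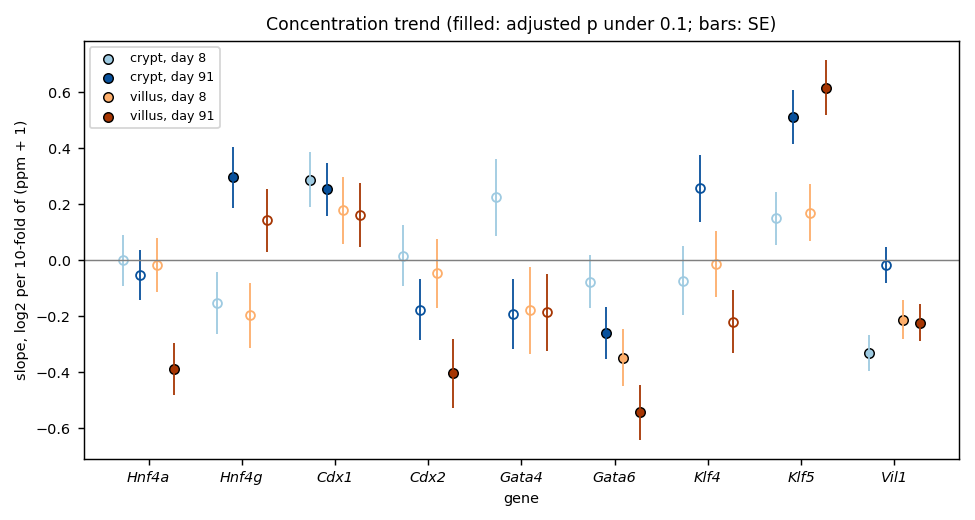
Slope of log2 level on log10(ppm + 1) for 9 genes in crypt and villus on days 8 and 91, with SE as bars. Filled points have an adjusted p under 0.1, and the largest slope is that of Klf5 in villus on day 91, 0.62.

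Vil1 in day 8 crypts had group means of 5400 CPM untreated and 4691, 4599, 3705, 4311, 3563 and 2729 CPM from 0.1 to 180 ppm. With all libraries used, every exposed mean was lower than the untreated one. Untreated crypts measured 5870, 4261, 4833, 8910 and 3127 CPM, and crypts at 180 ppm measured 3346, 3241, 2459, 1893 and 2708 CPM. The 2 sets overlapped through 1 untreated library at 3127 CPM, and the high value of 8910 CPM was the crypt library of mouse 49. The difference was -0.98 ± 0.20 (adjusted p = 0.00025), and without mice 48 and 49 it was -0.68 ± 0.21 (adjusted p = 0.084), with a slope of -0.26 ± 0.06 (adjusted p = 0.0031). Without these mice the differences were 0.06 ± 0.20 at 0.1 ppm and 0.03 ± 0.21 at 1.4 ppm. At 5, 20 and 60 ppm they were then -0.28, -0.04 and -0.31, so that a fall at every concentration was not seen. Summed villus markers in day 8 crypts had group medians of 3064 CPM untreated (range 2094 to 8581) and 634 CPM at 180 ppm (range 324 to 778). Summed crypt markers had medians of 9619 and 9908 CPM in these groups. The part of the mix of cells in the Vil1 difference was not tested. Cdx1 in the same crypts measured 31.4, 33.4, 27.1, 41.2 and 38.0 CPM untreated and 49.9, 47.6, 92.8, 40.1 and 75.5 CPM at 180 ppm. Cdx1 libraries at 180 ppm were mostly above the untreated ones, with an overlap at 40.1 CPM, and the trend missed the threshold without mouse 528 (adjusted p = 0.11).

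Vil1 in villi on day 91 measured 7142, 7671, 7831 and 5831 CPM untreated and 5399, 4592, 6885, 5434 and 5372 CPM at 180 ppm. Its group mean was 7119 ± 907 CPM untreated (SD, n = 4), 8437 ± 1576 CPM at 5 ppm (n = 5) and 5536 ± 832 CPM at 180 ppm (n = 5). Group means were below the untreated mean from 20 ppm on. Cdx2 in day 91 villi measured 37.4, 51.2, 35.3 and 45.5 CPM untreated and 19.6, 27.5, 6.22, 44.5 and 33.0 CPM at 180 ppm, with 1 exposed library inside the untreated range. The Vil1 trend in villi on day 8 missed the threshold without mouse 528 (adjusted p = 0.12).

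**Figure D3:**
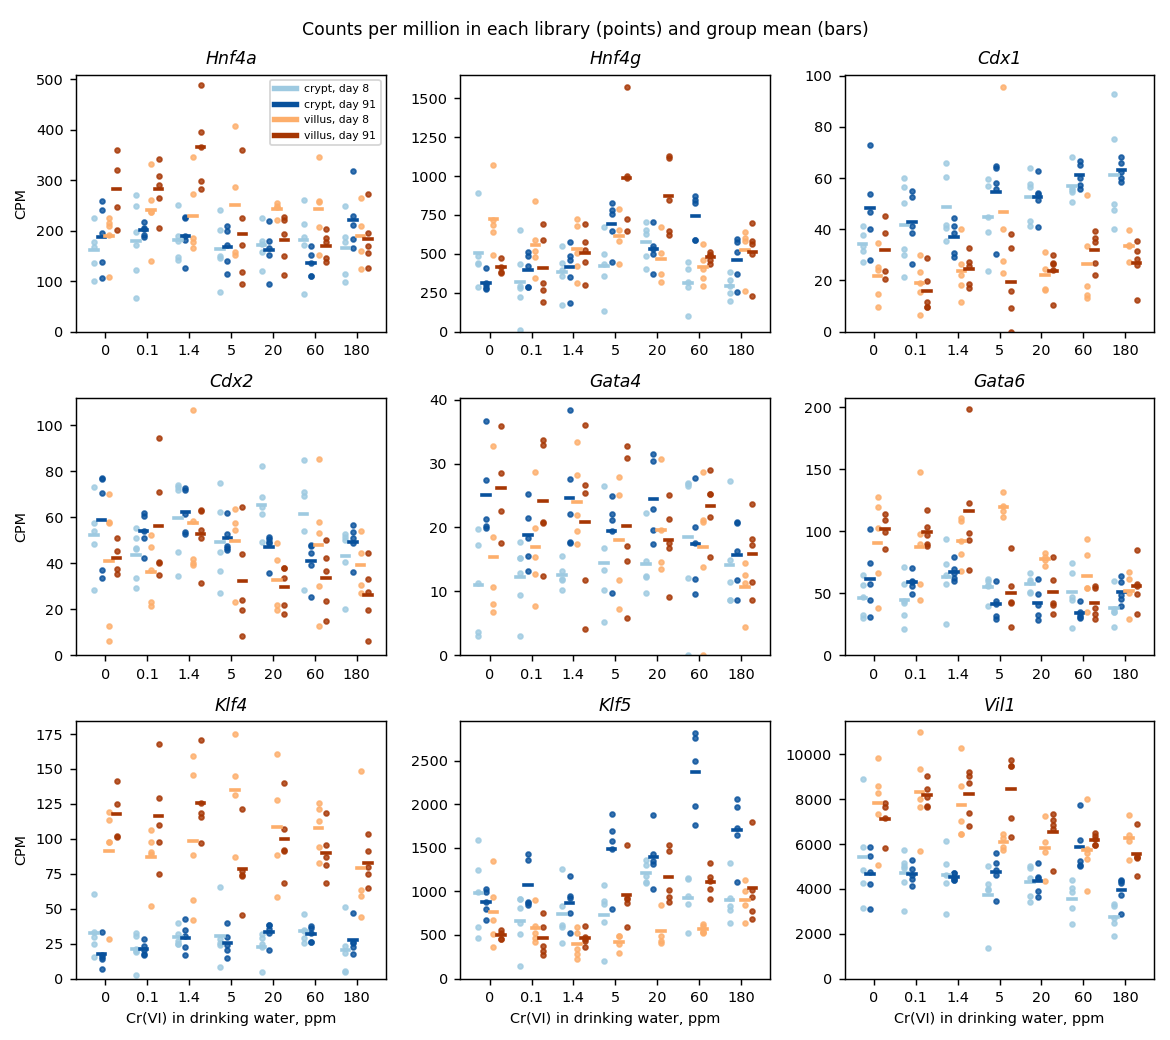
Level of 9 genes in CPM against the Cr(VI) concentration in ppm, for crypt and villus on days 8 and 91. Points are libraries and bars are group means. Klf5 in day 91 crypts reaches a mean of 2366 CPM at 60 ppm, and Gata6 in day 91 villi lies at group means of 42.0 to 55.8 CPM from 5 ppm on, compared with 99.0 to 116 CPM at 0 to 1.4 ppm.

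Each concentration was also compared with the untreated group of its compartment and day. In crypts on day 8, 1 of 60 member contrasts passed, that of Vil1 at 180 ppm. The shares of all probes that passed at 0.1, 1.4, 5, 20, 60 and 180 ppm were 0.0152%, 0.00379%, 0.0152%, 0.247%, 2.14% and 4.13%. In villi on day 8, 1 of 60 contrasts passed, that of Klf5 at 1.4 ppm, with -0.97 ± 0.30 (adjusted p = 0.099). Klf5 there measured 678, 936, 1351, 361 and 506 CPM untreated and 279, 587, 337, 230 and 528 CPM at 1.4 ppm, so the groups overlapped. The untreated value of 1351 CPM was the villus library of mouse 48. Without mice 48 and 49 the contrast did not pass (adjusted p = 0.31), and Gata6 passed at 180 ppm with -1.14 ± 0.32 (adjusted p = 0.025). In day 8 villi the shares of all probes were 0.0%, 1.52%, 0.357%, 2.61%, 6.58% and 5.97%.

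In crypts on day 91, 4 of 60 contrasts passed, and Klf5 made up 2 of them. Klf5 measured 677, 873, 802, 992 and 1024 CPM untreated, 2818, 2498, 1981, 1768 and 2766 CPM at 60 ppm, and 1732, 1970, 1104, 1651 and 2060 CPM at 180 ppm. Every library at 60 and 180 ppm lay above every untreated one. The differences were 1.44 ± 0.30 (adjusted p = 0.00018) and 0.96 ± 0.29 (adjusted p = 0.035), the second of which missed the threshold without mouse 3 (adjusted p = 0.11). Hnf4g measured 277, 273, 297, 315 and 407 CPM untreated and 869, 829, 587, 588 and 849 CPM at 60 ppm, without overlap, a difference of 1.25 ± 0.34 (adjusted p = 0.0058). Gata6 measured 74.0, 44.5, 102, 57.4 and 31.1 CPM untreated and 31.1, 29.7, 34.8, 32.0 and 43.8 CPM at 60 ppm. The Gata6 groups overlapped, with 3 of 5 values at 60 ppm inside the untreated range, and the difference of -0.85 ± 0.29 (adjusted p = 0.036) did not pass without mouse 6 (adjusted p = 0.20). The shares of all probes that passed at the 6 concentrations were 0.0%, 0.0%, 0.00379%, 0.535%, 14.5% and 6.49%.

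Villi on day 91 held most of the calls, 11 of 60, of which 6 were higher and 5 lower than untreated, and all 11 were at 5 ppm or above. Klf5 measured 450, 455, 525 and 560 CPM untreated and 479, 458, 435, 357 and 600 CPM at 1.4 ppm. At 5 ppm it measured 588, 908, 863, 930 and 1530 CPM, and at 20 ppm 1462, 933, 1018, 1528 and 882 CPM. At 60 ppm it measured 1326, 919, 1117, 1171 and 1023 CPM, and at 180 ppm 936, 776, 1792, 685 and 1021 CPM. All Klf5 libraries from 5 ppm on lay above the untreated ones, while those at 1.4 ppm lay below, within and above the untreated range. The differences were 0.95 ± 0.32, 1.22 ± 0.32, 1.16 ± 0.32 and 1.06 ± 0.32 at 5, 20, 60 and 180 ppm (adjusted p = 0.051, 0.0040, 0.0066 and 0.016). Without mouse 3, 5, 6 or 246 the call at 5 ppm was lost, and without mouse 485 the call at 180 ppm. The first was also lost when the probes of each gene were summed, and the second with the log10 total count as covariate.

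Gata6 moved the other way in the same libraries. It measured 114, 99.7, 85.8 and 109 CPM untreated and 92.5, 98.2, 123, 199 and 69.0 CPM at 1.4 ppm. At 5 ppm it measured 86.5, 42.1, 55.7, 42.8 and 22.7 CPM, at 20 ppm 40.4, 60.6, 32.9, 41.6 and 79.5 CPM, and at 60 ppm 29.0, 38.2, 53.9, 32.9 and 55.9 CPM. At 180 ppm it measured 57.3, 48.9, 32.8, 84.4 and 55.8 CPM. The untreated and exposed libraries did not overlap at 20, 60 and 180 ppm, and at 5 ppm 1 library, 86.5 CPM, reached the untreated range. The differences were -1.0 ± 0.31, -0.98 ± 0.30, -1.29 ± 0.31 and -0.86 ± 0.30 at 5, 20, 60 and 180 ppm (adjusted p = 0.030, 0.020, 0.0012 and 0.050). The call at 5 ppm was lost without mouse 246, and that at 180 ppm without mouse 7 or 485.

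Hnf4g was high at the middle concentrations. It measured 385, 418, 470 and 379 CPM untreated, 647, 725, 1002, 985 and 1574 CPM at 5 ppm, and 1127, 621, 847, 1119 and 646 CPM at 20 ppm. At 60 ppm it measured 437, 461, 494, 514 and 490 CPM, and at 180 ppm 497, 227, 564, 585 and 699 CPM. The libraries at 5 and 20 ppm were all above the untreated ones, and those at 60 and 180 ppm overlapped with them. The differences were 1.25 ± 0.36 at 5 ppm and 1.08 ± 0.36 at 20 ppm (adjusted p = 0.020 and 0.036), of which the first was lost without mouse 246 and the second without mouse 3, 5, 7 or 321 and in DESeq2. The second was also lost with DESeq2 size factors and with the log10 total count as covariate. Hnf4a measured 321, 359, 247 and 200 CPM untreated and 185, 138, 204, 145 and 178 CPM at 60 ppm. The highest value at 60 ppm, 204 CPM, was just above the lowest untreated one, 200 CPM. The difference was -0.73 ± 0.29 (adjusted p = 0.094), and the call was lost without mouse 3, 5, 6, 403 or 404. It was also lost when the probes of each gene were summed and in the legacy form of the edgeR fit.

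In day 91 villi the shares of all probes that passed were 0.0341%, 0.0341%, 10.9%, 14.7%, 15.5% and 13.8% at the 6 concentrations, so that the change between 1.4 and 5 ppm was seen over all probes too. The number of probes detected rose in the same step. Its group median was 13986.5 of 30146 untreated, 16117 at 1.4 ppm and 19415 at 5 ppm, and it was 13894, 15663 and 18217 with every library thinned to the same number of counts. From 5 ppm on, the median difference over all probes was 0.39, 0.27, 0.18 and 0.10. Summed markers of leukocytes had group medians of 713 CPM untreated (range 453 to 1136) and 2541 CPM at 5 ppm (range 1522 to 2855). Of these 4 markers, 2 rose and 1 fell with concentration in day 91 villi, beside 17.3% of all probes that rose and 9.08% that fell. Jchain had the highest median of the leukocyte markers over all libraries, 1051 CPM, while Ptprc, Cd3e and Cd79a had 53.1, 12.2 and 55.7 CPM. The leukocyte sum therefore mainly follows Jchain. The summed crypt markers had group medians of 973 CPM and 963 CPM in the same groups. When the count of probes detected in the thinned libraries entered the fit as a covariate, an alternative chosen after seeing the data, 1 of the 11 calls held, that of Gata6 at 60 ppm, with -1.15 ± 0.33 (adjusted p = 0.016). The Gata6 differences at 5, 20 and 180 ppm were then -0.83, -0.83 and -0.77 with adjusted p from 0.14 to 0.29. Those of Klf5 were 0.06, 0.54, 0.53 and 0.59 from 5 to 180 ppm, those of Hnf4g at 5 and 20 ppm 0.61 and 0.58, and that of Hnf4a at 60 ppm -0.32. The slopes of Gata6, Klf5, Hnf4a, Cdx2 and Vil1 in day 91 villi all passed with that covariate, at -0.49, 0.41, -0.25, -0.33 and -0.18. In the thinned libraries, probes detected were 13071 to 15650 untreated and 16113 to 21363 at 5 ppm. They were 16641 to 19497 at 20 ppm, 16383 to 18506 at 60 ppm and 14885 to 17461 at 180 ppm. Only the range at 180 ppm overlapped with untreated. Because detection moved with exposure, this covariate cannot tell the parts of exposure and of probe detection apart. The part of leukocytes in these differences was not tested.

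**Figure D4:**
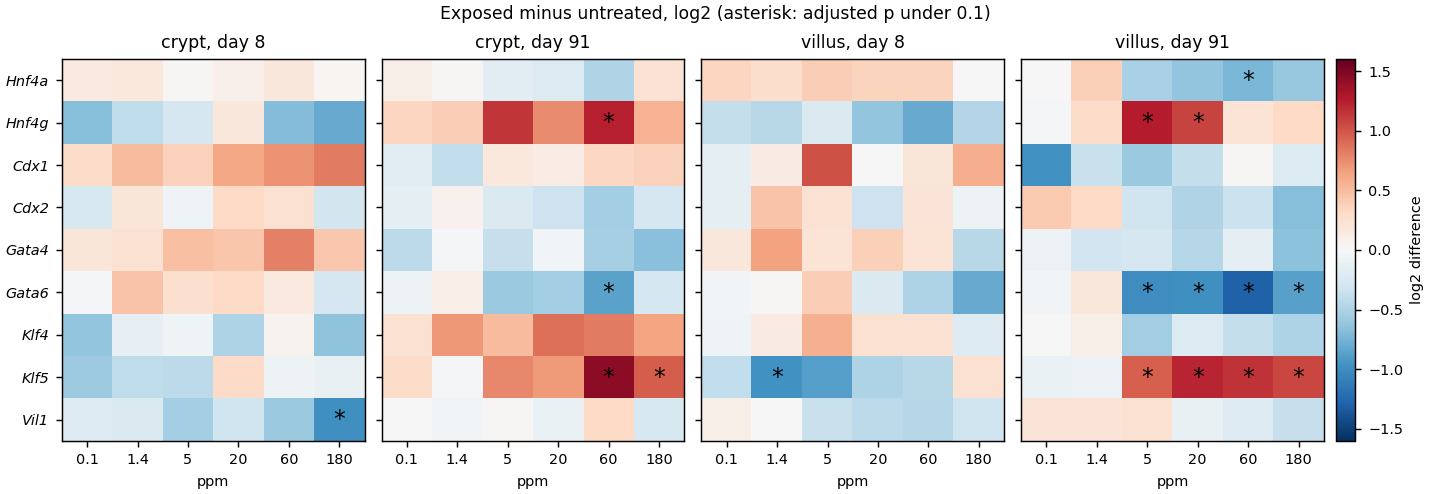
Difference between each concentration (ppm) and the untreated group, as log2 by colour, for 9 genes in crypt and villus on days 8 and 91. Asterisks mark an adjusted p under 0.1, and 11 of the 17 asterisks are in villus on day 91.

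On GRCm38, the annotated genes span chr2:163506808-163572910 (Hnf4a), chr3:3508030-3658052 (Hnf4g), chr4:55527143-55532466 (Klf4), chr14:99298691-99315036 (Klf5), chr14:63198922-63271692 (Gata4), chr5:147300805-147307270 (Cdx2), chr5:147269959-147275848 (Pdx1) and chr1:74409376-74435559 (Vil1) in GENCODE M21. All are protein coding, and positions of the probes within them were not used here.

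A second probe was available for Hnf4a, Gata4, Gata6 and Klf4 and served as a separate reading of the same transcripts in the same libraries. For Gata6 it had the same direction and passed in the same comparisons, with compartment differences of 0.45 and 0.37 on days 8 and 91 (adjusted p = 0.0079 and 0.026) and slopes of -0.45 and -0.67 in villi on days 8 and 91 and -0.29 in day 91 crypts (adjusted p = 0.013, 3.5e-06 and 0.087). For Klf4 it was higher in villus by 1.62 and 1.75 (adjusted p = 1.1e-07 and 5.9e-10). Its slope in day 91 villi was -0.51 (adjusted p = 0.032), compared with -0.22 (adjusted p = 0.17) for the probe used above. In day 91 crypts the 2 Klf4 probes had opposite signs, -0.31 for the second (adjusted p = 0.42) and 0.26 for the one used (adjusted p = 0.15). The second Hnf4a probe fell in day 91 villi with -0.35 (adjusted p = 0.0070), but its compartment differences were 0.15 and 0.05 (adjusted p = 0.42 and 0.95). The Hnf4a compartment difference was therefore seen with 1 of 2 probes. The Gata4 probes, with 9301 and 1858 counts in all, passed in none of these comparisons.

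Members of the same family were also set against each other within each library, as the log2 ratio of their counts with 0.5 added, which does not depend on the library size. These ratios were chosen after the values had been seen, and their slopes on log10(ppm + 1) were tested by permutation of the libraries (two-sided, 100000 resamples) with p adjusted over the 16 tests. Cdx1 rose relative to Cdx2 in crypts by 0.28 on day 8 (n = 36, permutation p = 0.015, adjusted p = 0.059) and 0.45 on day 91 (n = 35, permutation p = 4.0e-05, adjusted p = 0.00032). In day 8 villi the slope was 0.21 (n = 32, permutation p = 0.35, adjusted p = 0.52), and in day 91 villi it was 0.71 (n = 34, permutation p = 0.0041, adjusted p = 0.022). The day 91 villus group means were -0.46 untreated and -1.83, -1.11 and -1.59 at 0.1, 1.4 and 5 ppm. At 20, 60 and 180 ppm they were -0.35, 0.03 and 0.20. The lowest library, at -5.13 in the 5 ppm group, had 0 Cdx1 counts, so that its value depends on the 0.5 added. Klf5 rose relative to Klf4 in day 91 villi by 0.83 (n = 34, permutation p = 4.0e-05, adjusted p = 0.00032), and its other 3 slopes, from 0.17 to 0.36, did not pass. Hnf4g rose relative to Hnf4a on day 91 by 0.34 in crypts and 0.54 in villi (adjusted permutation p = 0.076 and 0.061), and measured 0.0059 and -0.21 on day 8. The rise was not steady, with day 91 crypt group means of 0.80 untreated, 2.46 at 60 ppm and 1.03 at 180 ppm. The day 91 villus means were 0.58 untreated, 2.44 at 5 ppm and 1.44 at 180 ppm. Gata6 fell relative to Gata4 in day 91 villi, by -0.40 (adjusted permutation p = 0.076), and its other 3 slopes did not pass. On day 91 at least 1 ratio of each of the 4 families passed, those of the HNF4 and GATA pairs only at 0.061 to 0.076. The adjustment over the 16 tests does not cover the choice of the ratios after the values had been seen.

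**Figure D5:**
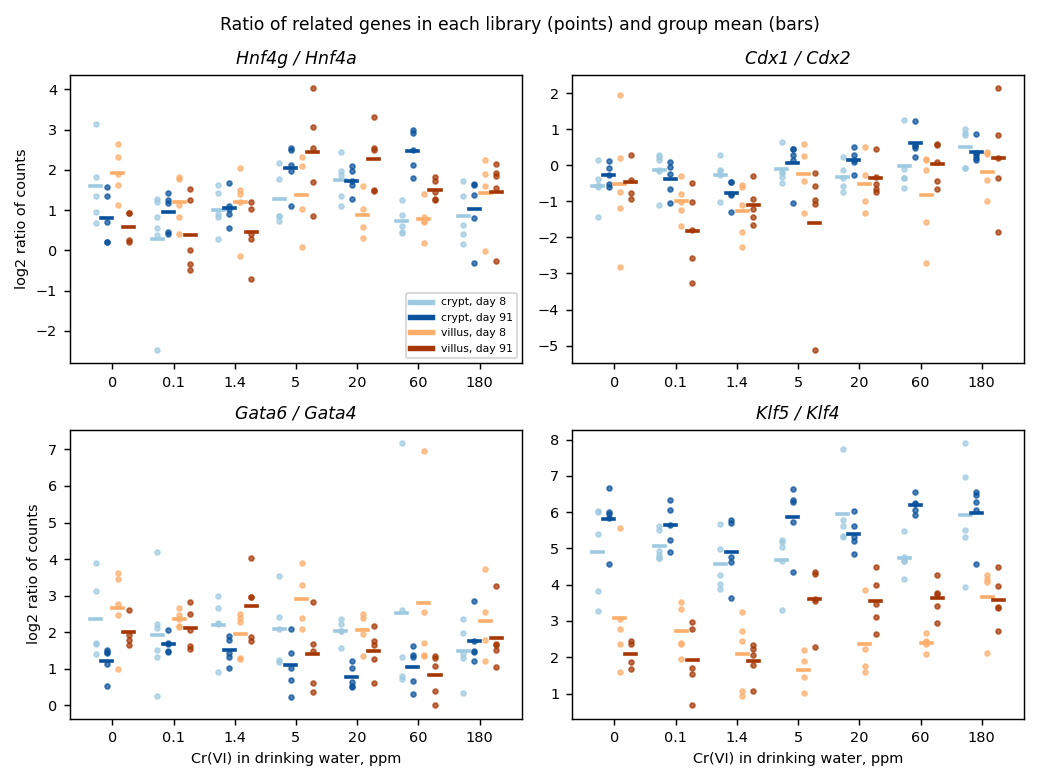
Log2 ratio of counts of 2 genes of a family in each library against the Cr(VI) concentration in ppm, for crypt and villus on days 8 and 91. Points are libraries and bars are group means. The mean Klf5/Klf4 ratio in day 91 villi lies at 1.90 to 2.09 from 0 to 1.4 ppm and at 3.54 to 3.64 from 5 ppm on.

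By edgeR, 0 of 10 members passed the test of a difference in slope between villus and crypt on days 8 and 91, beside 0.326% and 2.46% of all probes. At an unadjusted p under 0.05 there were 0 members on day 8 and 4 on day 91, and DESeq2 called 0 and 3. The smallest adjusted p was 0.14, that of Klf4 on day 91, with a difference of -0.48 ± 0.16. With the mouse as a block, 3 members passed on day 91, which were Klf4 at -0.49 ± 0.13 (adjusted p = 0.013), Vil1 at -0.25 ± 0.07 (adjusted p = 0.030) and Hnf4a at -0.33 ± 0.11 (adjusted p = 0.069). These were also the 3 members called by DESeq2. The shares of all probes called with the block and by DESeq2 are not given here. The Klf4 difference was read from 1 probe, and its second probe had slopes below 0 in both compartments on day 91, -0.31 in crypt and -0.51 in villus. In untreated mice, 0 of 10 members differed between days 91 and 8 in crypt or villus by edgeR, beside 0.0379% and 2.44% of all probes. At an unadjusted p under 0.05 there were 3 members in crypt and 1 in villus, and DESeq2 called 0 in both. Of the 3 in crypt, Gata4 measured 1.23 ± 0.41 (adjusted p = 0.54), and 1.94 ± 0.49 without mice 48 and 49 (adjusted p = 0.26).

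Other genes of enterocytes were read from lists beside the members. Of 12 brush border genes other than Vil1, such as Espn and Cdhr5, 11 were higher in villus on both days, with medians of 0.78 and 0.71. With concentration, 11 of 12 fell in day 8 crypts, 7 in day 8 villi, 9 in day 91 crypts, where Myo7b rose, and 8 in day 91 villi. Of all probes, 6.24%, 8.16%, 7.81% and 9.08% fell in these 4 sets. Pls1, an actin bundling protein of microvilli like villin, had slopes of -0.63 and -0.59 in day 8 crypts and villi and -0.47 and -0.62 on day 91. Of 20 genes of absorption and digestion, 16 and 17 were higher in villus on days 8 and 91. Of all probes, 11.7% and 13.5% were higher in villus on these days. The genes of absorption and digestion fell with concentration in 15 and 12 cases in day 8 crypts and villi and in 12 and 12 cases on day 91, while 0, 1, 1 and 3 rose. Of all probes, 4.3%, 6.45%, 10.9% and 17.3% rose in these 4 sets, so that the 3 of 20 in day 91 villi is near that share. Vill among the brush border genes and Sis, Lct and Mep1a among those of absorption were at 0 in all libraries of some groups, so that their tests over those groups are uncertain. The apolipoprotein gene Apob fell with a slope of -1.18 and the maltase gene Mgam with -1.18 in day 91 villi. Median slopes of this list lay between -0.77 and -0.54, compared with -0.07 to 0.07 over all probes.

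Of 14 other transcription factors of the intestine, 4 were higher and 1 lower in villus on day 8, and 4 and 3 on day 91, where 11.7% and 24.1% of all probes were higher and lower on day 8 and 13.5% and 22.8% on day 91. Creb3l3, a factor of lipid metabolism, was higher by 1.08 and 1.01, and Nr5a2, a nuclear receptor of crypts, was lower by -1.16 and -1.41. With concentration, Foxa3 rose in all 4 sets of libraries, with slopes of 0.25, 0.34, 0.30 and 0.55 in day 8 crypts, day 8 villi, day 91 crypts and day 91 villi, and Maf fell in the same order with -0.34, -0.48, -0.24 and -0.52. In all, 1 rose and 3 fell in day 8 crypts and in day 8 villi, 2 and 2 in day 91 crypts, and 2 and 3 in day 91 villi, beside 17.3% of all probes that rose and 9.08% that fell there. Several of these counts are near the shares over all probes. Of 10 factors of progenitor and secretory cells, Spdef, a factor of goblet and Paneth cells, rose in all 4 sets with slopes from 0.37 to 0.66, Gfi1 fell in day 91 villi with -0.61, and the others did not pass. Of these, Neurog3, Sox9 and Ascl2 were at 0 in all libraries of 6, 4 and 6 of the 7 groups of day 8 villi and of further groups, as was Foxa2 of the list before in 2 of those 7, so that their slopes over such groups are not informative. Myb was the gene of this list with the largest compartment difference, -1.89 and -2.65.

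Across the 28 group means, the genes most like each member among 9455 genes with a mean of at least 5 CPM were found by Pearson's r of log2 levels. For Klf4 these were Fam84a (r = 0.95), Krt20 (r = 0.94) and Gsto1 (r = 0.93), for Vil1 Slc27a4, Gk and Rfk (r = 0.94 each), and for Klf5 Gm28048 (r = 0.97), Hspa9 (r = 0.96) and Timm9 (r = 0.96). For Cdx1 they were Lsm2 (r = 0.91), Ncl (r = 0.90) and Pus1 (r = 0.89), for Gata6 Kif13b (r = 0.92), Ubb (r = 0.92) and Txn1 (r = 0.90), and for Hnf4g they included Rwdd2b (r = 0.91) and Myo7b (r = 0.88). For Hnf4a they were March5 (r = 0.88), Tob1 (r = 0.87) and Cycs (r = 0.87), and for Cdx2 and Gata4 the nearest genes reached 0.84 (Serhl) and 0.76 (Cyp4a31). The 28 points share compartments, libraries and depth, and these values are descriptions.

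Among the members, the within-group deviations of Klf5 and Hnf4g ran closest together (r = 0.77 over all crypt and villus libraries), followed by Hnf4a and Gata6 (r = 0.54), and 36 of 45 pairs were above 0. Over group means the highest r was that of Hnf4a and Gata6 (0.85), and the lowest was that of Cdx1 and Vil1 (-0.81). The within-group deviations of Vil1 and of the 12 summed brush border genes had r = 0.91. These libraries share depth and scaling, and the values are descriptions.

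Pdx1 was nearly not measured. Its probe had 129 counts in all, 0 in 121 libraries and more than 3 in 15. The highest value was 18 counts, or 8.97 CPM, in the untreated day 91 villus library of mouse 3. The other 3 libraries of that group were at 0. A count of 0 allows up to 3 counts, or 0.417 to 2.05 CPM depending on the library. Pdx1 was at 0 in every library of 13 of the 28 groups, so that its means over concentrations and its slopes are not given, and a difference was not detectable at this depth. The islet hormone genes Ins1, Ins2 and Iapp, read as markers of pancreas beside it, summed to 0 to 103 CPM.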

How the data were processed

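TempO-Seq counts were available for 71 crypt and 66 villus libraries of 71 mice, and the labels gave each library its compartment, concentration, day and mouse. The counts, reads per probe with 1 to 3 probes per gene, were deposited by the authors as raw values without normalization, and the submitters' processing notes name bcl2fastq 2.17.1.14 and Bowtie, the latter without a version. The study left out libraries of low depth or diversity. No column was without a sample. Replicates were separate mice.

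The counts were fitted in edgeR 4.0.16 (R 4.3.3) with the quasi-likelihood test, TMM scaling and 1 coefficient for each of the 28 groups. Of 30146 probes, 26365 passed filterByExpr and were tested, those of all 10 members included, and p-values were adjusted over all of them by Benjamini-Hochberg with a threshold of 0.1. A probe at 0 in all libraries of a group has no finite coefficient there, and a mean or slope over that group is seldom called and its SE is not usable. Errors of differences are SE, computed as the log2 difference divided by the root of F, and the prior count was 2. CPM were computed on TMM-scaled totals. Totals of 1463938 to 7199801 counts set the precision, and intervals or floors of 3 counts cover counting error only. The code was tested on simulated data with a fixed spread. Of 200 probes changed 4-fold in 180 ppm day 91 villi, 103 were called, and 15 of the 118 calls were other probes. In the unchanged 180 ppm day 91 crypts, 0 of 18933 probes were called. A change of that size could thus go uncalled.

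The members and gene lists were chosen with earlier results of these data known. All members are named. From the other lists, up to 2 genes with the smallest adjusted p in each direction are named per comparison, and up to 3 genes most like a member. Mouse numbers in the labels pair crypt and villus. Residuals of the same mouse had a median r of 0.058 over 66 pairs, and of different mice -0.016 over 269. The mouse as a block was an alternative, as were DESeq2 1.42.0, its size factors, other filters, thinning, summed probes, covariates, separate fits and leaving out each mouse. Ratios within libraries and the covariate of probes detected at equal depth were chosen after seeing the data. Of the genes most like Hnf4g, 1 is not reported here.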

Additional observations from a re-analysis of the deposited data

Results flagged for a closer look

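The levels of 9 members in the 28 groups gave 252 sets of 4 to 6 libraries, which share libraries. On the log2(CPM + 0.5) scale a single library stood far from the others in 22 sets, or 8.73%, where chance gives about 1 in 20. All 22 were the lowest of their set and came from 16 mice. The log scale widens gaps at low levels, and on CPM itself, a scale tried after seeing the data, 9 sets met the same rule, 8 of the 22 and 1 highest value, that of Cdx2 in day 8 villi at 1.4 ppm with 107 CPM (mouse 210, others 39.2 to 58.4). Among day 8 crypts at 0.1 ppm, these were Hnf4g at 11.9 CPM (mouse 126, others 224 to 653), Gata4 at 2.97 CPM (mouse 130, others 9.44 to 17.7), Klf4 at 2.73 CPM (mouse 126, others 19.0 to 32.4) and Klf5 at 141 CPM (mouse 126, others 515 to 914). Among day 8 crypts at 5 ppm, these were Gata6 at 39.7 CPM (mouse 290, others 55.7 to 61.3) and Vil1 at 1341 CPM (mouse 289, others 3954 to 5017). Among day 8 crypts at 20 ppm, this was Klf4 at 5.00 CPM (mouse 369, others 22.3 to 32.2). Among day 8 crypts at 60 ppm, this was Gata4 at 0 CPM (mouse 447, others 12.1 to 27.0). Among day 8 crypts at 180 ppm, this was Cdx2 at 19.9 CPM (mouse 529, others 40.4 to 52.9). Among day 91 crypts at 5 ppm, these were Cdx1 at 30.2 CPM (mouse 246, others 55.5 to 64.6), Gata4 at 9.69 CPM (mouse 243, others 19.5 to 25.0) and Klf5 at 802 CPM (mouse 245, others 1482 to 1894). Among day 91 crypts at 20 ppm, these were Cdx2 at 35.9 CPM (mouse 321, others 48.9 to 51.6) and Klf4 at 20.3 CPM (mouse 321, others 32.8 to 38.5). Among day 8 villi of untreated mice, these were Hnf4a at 109 CPM (mouse 48, others 192 to 225) and Klf4 at 28.6 CPM (mouse 48, others 97.7 to 120). Among day 8 villi at 0.1 ppm, this was Klf4 at 51.8 CPM (mouse 129, others 89.5 to 106). Among day 8 villi at 5 ppm, this was Cdx2 at 23.1 CPM (mouse 289, others 54.5 to 63.5). Among day 8 villi at 60 ppm, this was Gata4 at 0 CPM (mouse 447, others 13.7 to 28.7). Among day 8 villi at 180 ppm, this was Hnf4g at 261 CPM (mouse 526, others 585 to 642). Among day 91 villi at 20 ppm, these were Cdx1 at 10.5 CPM (mouse 327, others up to 29.9) and Vil1 at 4780 CPM (mouse 328, others 6677 to 7354). The villus library of mouse 48 and that of mouse 447 are also those with more crypt than villus markers.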

How the results depend on the processing

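Values here are numbers of members called, of 10, or of 60 contrasts for exposure. The shares of all probes called in each alternative setting are not given here. A changed count can therefore not be read as particular to the members. The untreated compartment difference on day 8 had 1 call, and 3 in DESeq2, 2 with DESeq2 size factors, 3 without mice 48 and 49, 0 in the legacy form of the fit, 2 with a mean count of at least 10, 2 with the mouse as a replicate block, and 0 to 3 when single mice were left out. On day 91 it had 2 calls, 4 in DESeq2, 4 with a mean count of at least 10, and 1 to 2 without single mice. The crypt trend on day 8 had 2 calls, 1 in the legacy form and 1 to 2 without single mice (1 without mouse 528), and the villus trend on day 8 had 2 and 1 to 2 (1 without mouse 528). The crypt trend on day 91 had 4 calls, 2 in DESeq2, 2 with its size factors, 7 in separate fits and 2 to 4 without single mice (2 without mouse 5). Exposure in day 8 crypts had 1 call, 3 in DESeq2, 3 with its size factors, 3 with the log10 total as covariate, 2 with a mean count of at least 10, 2 with summed probes, 2 in separate fits and 1 to 2 without single mice. Exposure in day 8 villi had 1 call, 3 in DESeq2, 2 with a mean count of at least 10, 0 in the legacy form, with the log10 total, with summed probes and in separate fits, and 0 to 2 without single mice. Exposure in day 91 crypts had 4 calls and 14 in separate fits. Exposure in day 91 villi had 11 calls, 19 in DESeq2 and 1 with probes detected at equal depth as covariate. The trend difference on day 91 had 0 calls, 3 in DESeq2, 1 with its size factors, 1 with a mean count of at least 10, 1 with thinned counts, 3 with the replicate block and 0 to 1 without single mice. The causes were not tested. The block changed the count of calls by more than 1.5 times in no other comparison. For single members, 445 of 484 values of calls under these alternatives kept their side of the threshold, 39 did not and 0 reversed, and 1106 of 1153 did when a mouse was left out. Depth limits Pdx1, at 0 counts in 121 libraries, and Gata4, with 9301 counts in all.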

Other observations

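Cdx1 was at 0 counts in 1 library, the 5 ppm day 91 villus library of mouse 245. The summed villus markers in day 91 villi had a group median of 18886 CPM untreated, 38468 CPM at 1.4 ppm and 5111 CPM at 180 ppm, so that the highest median was at 1.4 ppm. Summed smooth muscle markers ranged from 442 to 3750 CPM in crypt and from 151 to 2018 CPM in villus libraries. On day 91, 5 of these 6 genes fell with concentration in both compartments, beside 7.81% of all probes in crypt and 9.08% in villus.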
